A study of Homo sapiens with 2 samples.

Results

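The 10 genes described here encode the adhesion receptors and antibody receptors of the monocyte surface: the integrin alpha chains ITGAX, ITGAM, ITGAL, ITGA4 and ITGA5, the integrin beta chains ITGB2 and ITGB1, the Fc receptors FCGR1A and FCGR2A, and the Fc receptor signalling chain FCER1G. They were chosen by symbol with no minimum level. All 10 were listed, with 23 transcripts, among 29373 transcripts of 11697 gene symbols. The cells were THP-1, a human cell line established from a monocytic acute myeloid leukaemia. One culture had been exposed for 48 h to OPA1, at 2 µM, and the other to the DMSO control. OPA1 is given in the labels as a treatment with no further description, and is distinct from the mitochondrial gene of that symbol. Per its title the series concerns opioid receptor signalling and TET-dependent DNA demethylation in leukaemia, and the comparison asks which mRNAs differ after exposure to the agent. With 1 library in each group, the differences have no replicate check, and neither errors nor p-values can be given. Values are FPKM, that is, fragments scaled by transcript length and by the library total, summed over the listed transcripts of a gene. In bulk RNA, fewer cells of a type and less RNA per cell cannot be told apart.

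Integrins are heterodimers of an alpha and a beta chain. On leukocytes the alpha chains L, M and X (CD11a, CD11b and CD11c) each pair with ITGB2 (CD18) and bind intercellular adhesion molecules, complement fragments or fibrinogen, whereas the chains of ITGA4 and ITGA5 pair with ITGB1 and bind VCAM1 or fibronectin. FCGR1A encodes the high-affinity IgG receptor CD64, which signals through the gamma chain encoded by FCER1G. FCGR2A encodes the low-affinity receptor CD32a, which carries its own activating motif (ITAM) in the cytoplasmic tail.

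The listed transcripts of several genes differed little in coding sequence, which bears on their values per transcript. The coding stretches where the listed transcripts of FCGR2A, ITGAL and ITGAM part are shown because they are what tells these transcripts apart inside the coding region. They were read from the GENCODE release 29 transcripts, 5′ to 3′, with the bases that the partner lacks in capitals, or, in the partner, the 2 bases that meet where those bases are missing.
FCGR2A-201: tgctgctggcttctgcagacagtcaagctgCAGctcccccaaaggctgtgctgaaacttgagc
FCGR2A-202: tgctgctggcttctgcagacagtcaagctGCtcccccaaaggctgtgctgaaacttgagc
ITGAM-202: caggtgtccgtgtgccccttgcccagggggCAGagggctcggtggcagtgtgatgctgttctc
ITGAM-201: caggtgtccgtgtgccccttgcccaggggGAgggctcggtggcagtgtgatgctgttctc
ITGAL-201: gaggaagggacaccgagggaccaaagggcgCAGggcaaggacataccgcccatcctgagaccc
ITGAL-202: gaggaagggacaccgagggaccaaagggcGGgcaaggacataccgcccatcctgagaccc
In each of these 3 pairs the transcripts parted by the same 3 coding bases, CAG, at the start of an exon. That was the whole coding difference in FCGR2A and in ITGAM, whose listed transcripts otherwise differed in their untranslated ends. ITGAL-201 also had 249 coding bases, from coding position 328, that ITGAL-202 lacked.

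FCER1G and FCGR1A parted by whole exons. In FCER1G the last coding exon differed, and in FCER1G-201 that exon holds the distal part of the ITAM through which the gamma chain signals. The stretch of FCER1G-201 shows shared bases in lower case and the 60 coding bases of its own last exon in capitals.
FCER1G-201: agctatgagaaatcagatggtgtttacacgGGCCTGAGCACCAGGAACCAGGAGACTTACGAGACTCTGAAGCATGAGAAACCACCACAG
These 60 bases are all of its own coding sequence before the stop codon. FCGR1A-202 joined its first coding exon directly to a later one and so lacked 276 coding bases of FCGR1A-201 near the 5′ end, and its model has no annotated 3′ end. Capitals mark the first 60 of these bases in FCGR1A-201 and the 2 bases that meet in FCGR1A-202.
FCGR1A-201: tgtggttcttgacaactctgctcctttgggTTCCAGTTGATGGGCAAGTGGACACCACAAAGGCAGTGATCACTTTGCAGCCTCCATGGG
FCGR1A-202: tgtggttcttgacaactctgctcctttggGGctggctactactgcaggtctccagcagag

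All 10 genes averaged at least 1 FPKM over both libraries, 4 of them higher and 6 lower in the OPA1 library. On the log2(FPKM + 1) scale, on which all log2 ratios of OPA1 over DMSO are given, their median was -0.14, against a median of -0.00024 over the 10601 genes that passed this minimum. The middle 50% of those genes lay between -0.15 and 0.16. A single member, ITGAX, was at least 2-fold apart on this scale, in a background of 3.96% of all genes apart in either direction, 1.97% higher and 1.99% lower. The sums over the listed rows were 331515 FPKM with OPA1 and 325059 FPKM with DMSO. In both libraries ITGB2 was the highest of the 10 and ITGAM the lowest, with ITGAX next to it. FCER1G stood second with OPA1, whereas ITGB1 and FCGR1A were above it with DMSO. This order depends on which transcripts are summed: with only those whose mRNA start and end GENCODE lists as found (complete models), FCER1G, at 75.9 FPKM with OPA1 and 53.3 FPKM with DMSO, was above ITGB2, at 63.2 FPKM, in the OPA1 library and above FCGR1A, at 38.1 FPKM, in the DMSO library. Without replicates no spread can be set against the steps of this order.

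**Figure D1:**
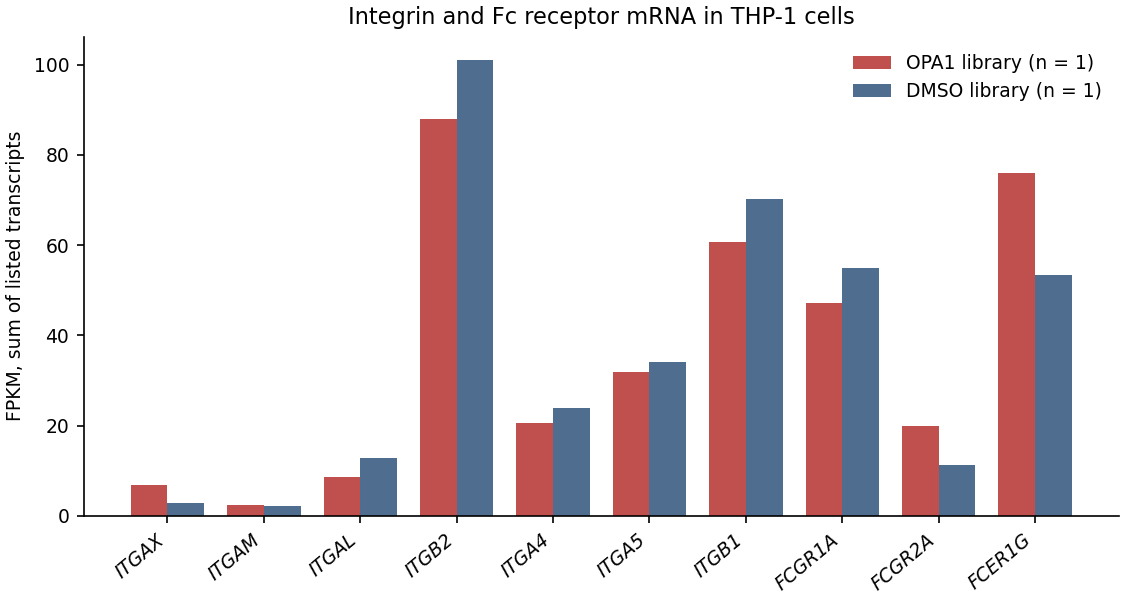
FPKM of the 10 genes, summed over their listed transcripts, in the OPA1 library (red) and the DMSO library (blue), 1 library each and therefore without error bars. ITGAX, FCGR2A and FCER1G are visibly taller with OPA1, and ITGAL, ITGB2, ITGB1 and FCGR1A with DMSO.

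Of the alpha chains that pair with ITGB2, ITGAX was higher and ITGAL lower in the OPA1 library. ITGAX, the CD11c chain of complement receptor 4 (chromosome 16, 31366455 to 31394318, hg19, plus strand), stood at 6.88 FPKM with OPA1 and 2.92 FPKM with DMSO. This was a 2.36-fold difference with a log2 ratio of 1.01, just past the 2-fold line. Of the 4053 genes with a mean within 2-fold of its own, 4.74% were at least as far apart in either direction. ITGAX had 1 listed transcript, so its value does not depend on a division among listed transcripts, and 1.76% of its 50-base stretches also occurred in transcripts of other genes, mostly of the paralog ITGAD.

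ITGAL, the CD11a chain of LFA-1 (chromosome 16, 30483979 to 30534506), was at 8.56 FPKM with OPA1 and 12.9 FPKM with DMSO, 1.50-fold lower with a log2 ratio of -0.53. Of 4334 genes at a like level, 11.8% were at least as far apart. The lower sum came from the full-length ITGAL-201, at 6.51 FPKM with OPA1 and 10.97 FPKM with DMSO. ITGAL-202, which lacks the bases described above, was nearly level at 2.05 FPKM with OPA1 and 1.89 FPKM with DMSO. Its share of the ITGAL sum was 23.96% with OPA1 and 14.7% with DMSO.

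ITGAM, the CD11b chain of complement receptor 3 (chromosome 16, 31271311 to 31344213), lies 22.2 kb from ITGAX and was close to level, at 2.30 FPKM with OPA1 and 2.08 FPKM with DMSO. Its log2 ratio of 0.10 was matched or passed in size by 74.8% of genes at a like level. Most of the sum was on ITGAM-202, at 2.15 FPKM with OPA1 and 1.47 FPKM with DMSO. ITGAM-201 was at 0.15 FPKM with OPA1 and 0.61 FPKM with DMSO. Of the 50-base stretches of ITGAM-201, 1.33% are absent from ITGAM-202, so ITGAM-201 has few bases of its own. Of those of ITGAM-202, 24.1% are absent from ITGAM-201.

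ITGB2, the shared beta chain (chromosome 21, 46305871 to 46340965, minus strand), was the most abundant of the 10, at 88.0 FPKM with OPA1 and 101 FPKM with DMSO, with a log2 ratio of -0.20. Its main transcript ITGB2-201 was at 63.2 FPKM with OPA1 and 67.8 FPKM with DMSO, and ITGB2-202 was at 23.8 FPKM with OPA1 and 24.4 FPKM with DMSO. The difference in the sum lay mainly in ITGB2-220, at 0.41 FPKM with OPA1 and 7.79 FPKM with DMSO. ITGB2-219 was at 0.60 FPKM with OPA1 and 0.72 FPKM with DMSO, and ITGB2-204 was listed at 0 with OPA1 and at 0.50 FPKM with DMSO.

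The 3 alpha chains that share ITGB2 summed to nearly the same level in both libraries, 17.7 FPKM with OPA1 and 17.9 FPKM with DMSO, but were divided differently. ITGAX made up 38.8% of the sum with OPA1 and 16.3% with DMSO. ITGAL made up 48.3% with OPA1 and 72.0% with DMSO, and ITGAM 13.0% with OPA1 and 11.7% with DMSO. ITGAL was the most abundant of the 3 in both libraries. ITGB2 mRNA exceeded this sum 4.96-fold with OPA1 and 5.67-fold with DMSO. With complete models only, ITGB2 exceeded it 3.56-fold with OPA1 and 3.82-fold with DMSO.

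**Figure D2:**
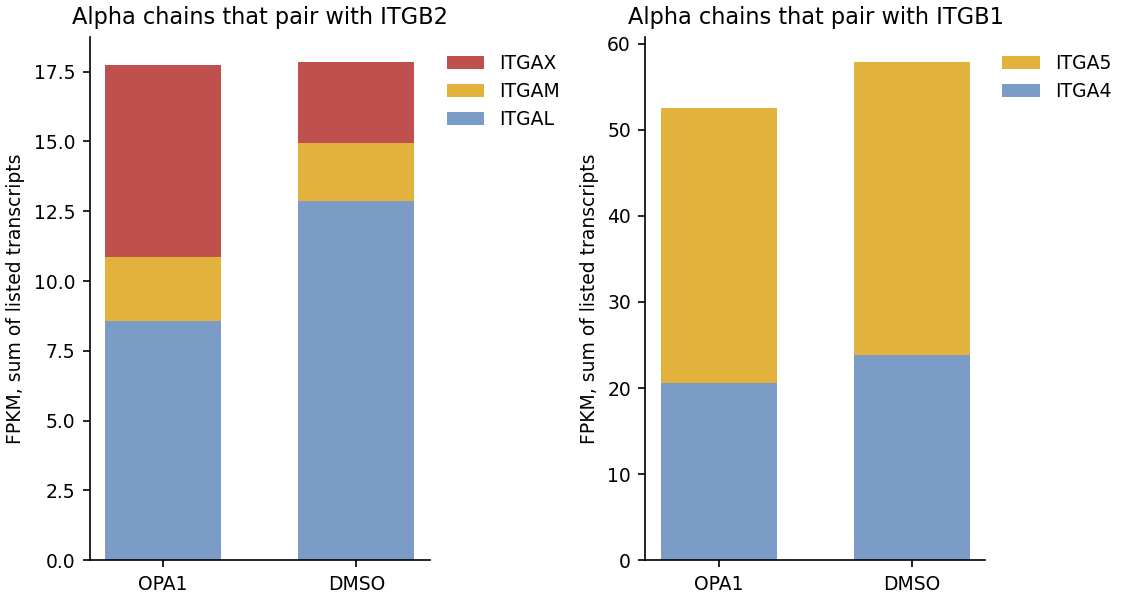
FPKM of the member alpha chains that pair with ITGB2 (left) and of the member alpha chains that pair with ITGB1 (right), stacked, in the OPA1 and the DMSO library, 1 library each. The left stacks have nearly equal heights of 17.7 and 17.9 FPKM with a larger ITGAX segment in the OPA1 library, while the right stacks keep similar proportions.

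The fibronectin and VCAM1 receptor chains differed less than ITGAX and ITGAL. ITGA4, the chain of VLA-4 (chromosome 2, 182321952 to 182400914), was at 20.6 FPKM with OPA1 and 23.9 FPKM with DMSO, a log2 ratio of -0.20. Nearly all of it was the full-length ITGA4-203, at 19.5 FPKM with OPA1 and 23.5 FPKM with DMSO, and ITGA4-201 was at 1.12 FPKM with OPA1 and 0.41 FPKM with DMSO. ITGA5, the alpha chain of the main fibronectin receptor (chromosome 12, 54789045 to 54813244), had 1 listed transcript, at 32.0 FPKM with OPA1 and 34.0 FPKM with DMSO. Its log2 ratio of -0.09 was the smallest in size of the 10.

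ITGB1, the beta chain of both (chromosome 10, 33189320 to 33247160), was at 60.6 FPKM with OPA1 and 70.3 FPKM with DMSO, a log2 ratio of -0.21. The main transcript ITGB1-201 was nearly level, at 59.0 FPKM with OPA1 and 60.9 FPKM with DMSO. Most of the difference lay in ITGB1-210, at 0.59 FPKM with OPA1 and 4.93 FPKM with DMSO, and in ITGB1-215, at 0.50 FPKM with OPA1 and 4.40 FPKM with DMSO. ITGB1-204 was at 0.51 FPKM with OPA1 and 0.07 FPKM with DMSO. Of the 50-base stretches of ITGB1-201, 15.6% also occur in a transcript of another gene. ITGA4 and ITGA5 together summed to 52.6 FPKM with OPA1 and 57.9 FPKM with DMSO, and ITGB1 exceeded that sum 1.15-fold with OPA1 and 1.21-fold with DMSO. The order of these ratios turns when only transcripts with a complete model are summed, to 1.15 with OPA1 and 1.06 with DMSO. ITGA5 made up 60.8% of this alpha sum with OPA1 and 58.8% with DMSO. Only member alpha chains are in this sum. ITGAV, at 7.48 FPKM with OPA1 and 7.32 FPKM with DMSO, is left out. So is ITGA7, at 6.37 FPKM with OPA1 and 6.40 FPKM with DMSO. An excess of ITGB1 over all its possible partners is therefore not shown.

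Among the Fc receptor genes, FCGR2A and FCER1G were higher and FCGR1A lower in the OPA1 library. FCGR2A (chromosome 1, 161475220 to 161489358) was at 19.8 FPKM with OPA1 and 11.2 FPKM with DMSO, 1.77-fold higher with a log2 ratio of 0.78. Of 4020 genes at a like level, 5.45% were at least as far apart. Its transcripts differed in opposite directions. FCGR2A-201 was at 18.3 FPKM with OPA1 and 7.40 FPKM with DMSO, and FCGR2A-202 at 1.52 FPKM with OPA1 and 3.79 FPKM with DMSO. FCGR2A-201 thus held 92.3% of the sum with OPA1 and 66.1% with DMSO. These 2 transcripts differ in coding sequence only by the CAG shown above. Absent from the partner are 3.48% of the 50-base stretches of FCGR2A-202 and 44.9% of those of FCGR2A-201. Stretches found in transcripts of other genes, mostly FCGR2C, made up 26.2% of FCGR2A-201 and 43.7% of FCGR2A-202. FCGR2C had no row and is not analysed here.

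FCER1G (chromosome 1, 161185069 to 161190489) was at 75.9 FPKM with OPA1 and 53.3 FPKM with DMSO, 1.42-fold higher with a log2 ratio of 0.50. Of 1413 genes at a like level, 7.29% were at least as far apart. The higher value was that of FCER1G-201, the transcript with the complete ITAM, at 75.6 FPKM with OPA1 and 52.0 FPKM with DMSO. FCER1G-202 was at 0.34 FPKM with OPA1 and 1.36 FPKM with DMSO, or 0.45% of the gene with OPA1 and 2.56% with DMSO.

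FCGR1A (chromosome 1, 149754227 to 149764074) was at 47.2 FPKM with OPA1 and 54.9 FPKM with DMSO, a log2 ratio of -0.21. FCGR1A-201, which encodes the whole receptor, was level at 38.3 FPKM with OPA1 and 38.1 FPKM with DMSO, and the lower sum lay in FCGR1A-202, at 8.88 FPKM with OPA1 and 16.8 FPKM with DMSO. Absent from the partner are 8.98% of the 50-base stretches of FCGR1A-202 and 68.1% of those of FCGR1A-201. FCGR1A and its partial copy FCGR1B cannot be separated fully, since 38.4% of the 50-base stretches of FCGR1A-201 and 59.8% of those of FCGR1A-202 occur in FCGR1B. Over all other genes, shared stretches made up 46.6% of FCGR1A-201 and 77.2% of FCGR1A-202. FCGR1B was at 15.4 FPKM with OPA1 and 16.4 FPKM with DMSO. FCGR1A and FCGR1B together were at 62.6 FPKM with OPA1 and 71.3 FPKM with DMSO. FCER1G exceeded FCGR1A 1.61-fold with OPA1 and stood at 0.97 of it with DMSO, but with complete models only it exceeded FCGR1A in both libraries, 1.98-fold with OPA1 and 1.40-fold with DMSO. FCGR1A exceeded FCGR2A 2.38-fold with OPA1 and 4.91-fold with DMSO, or 1.93-fold and 3.41-fold with complete models only.

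**Figure D3:**
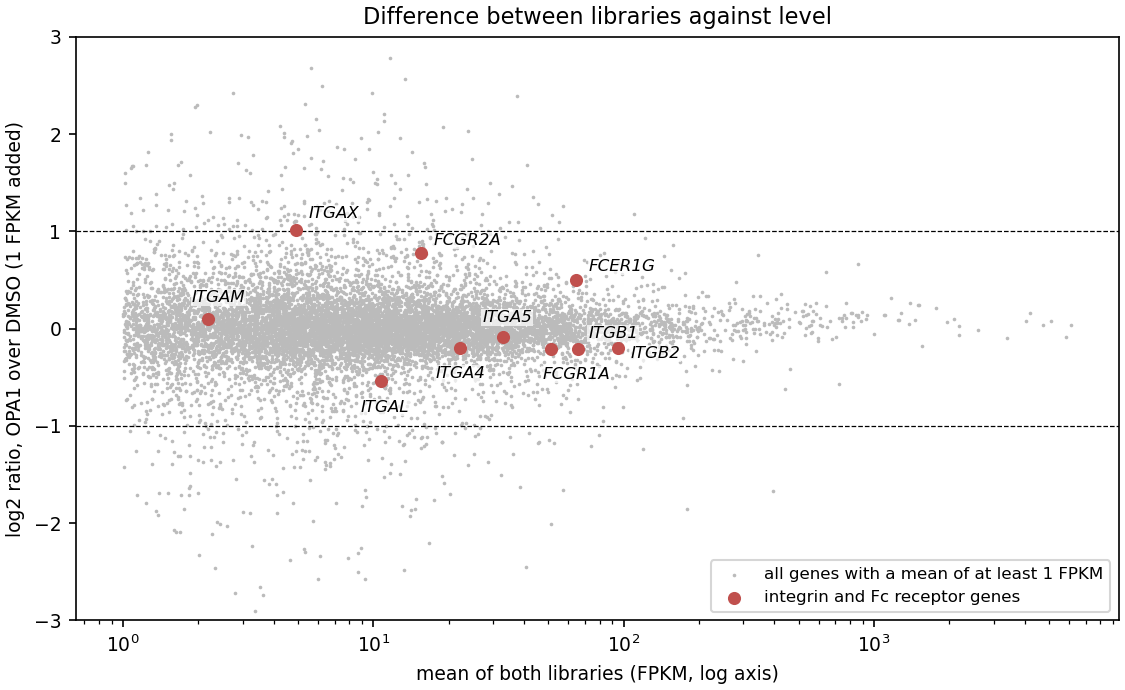
Log2 ratio of OPA1 over DMSO (1 FPKM added, vertical axis) against the mean of both libraries in FPKM (log axis) for the 10601 genes averaging 1 FPKM or more in grey and the 10 integrin and Fc receptor genes in red, with dashed lines at 2-fold and 4 genes beyond the axis. ITGAX lies on the upper line at 1.01, FCGR2A at 0.78 and FCER1G at 0.50 lie above the bulk of genes, ITGAL at -0.53 lies below it, and the other 6 lie closer to 0.

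At the level of transcripts, 17 of the 23 averaged at least 1 FPKM, and 5 of these were at least 2-fold apart on the log2(FPKM + 1) scale, in a background of 18.2% of 19623 transcripts. FCGR2A-202, 2.48-fold lower in plain FPKM, is not counted on that scale. Adding 0.1 FPKM instead of 1, or rescaling both libraries to one sum, gave 6. The share of all transcripts apart was not computed at these settings. Of the 5 counted with 1 FPKM added, 2 were higher with OPA1, as were 9.09% of all transcripts. They were ITGAX-201 and FCGR2A-201. Lower, as were 9.12% of all transcripts, were the other 3 of the 5, ITGB2-220, ITGB1-210 and ITGB1-215. GENCODE marks 8 of the 23 transcripts as incomplete models, whose mRNA start or end was not found, and the 3 lower ones are among them. Incomplete models made up 20.3% of all listed transcripts and were 2-fold apart in 18.1% of cases at a mean of at least 1 FPKM, against 18.2% of complete ones. ITGB2-202 and ITGA4-201 are incomplete models without a 50-base stretch of their own, so that fragments assigned to them also match other listed transcripts of their genes. ITGB2-202 nevertheless held 27.0% of the ITGB2 sum with OPA1 and 24.1% with DMSO.

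When only complete models were summed, a choice made after seeing the data, the differences of FCGR1A and ITGB1 nearly closed. FCGR1A then had a log2 ratio of 0.0077, ITGB1 of -0.04 and ITGA4 of -0.26. ITGB2 was at 63.2 FPKM with OPA1 and 68.3 FPKM with DMSO, a log2 ratio of -0.11. The ratios of ITGAX, ITGAM, ITGAL, ITGA5, FCGR2A and FCER1G do not change, since all their listed transcripts are complete.

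The share of a gene's sum that sat on other transcripts in the OPA1 library than in the DMSO library was 26.2% for FCGR2A and 23.03% for ITGAM, the highest of the 8 members with more than 1 listed transcript. It was lowest for FCER1G at 2.11% and ITGA4 at 3.69%. The median of the 8 was 10.4%, against 13.8% over 7204 genes with more than 1 listed transcript. The third quartile over those genes was 33.3%, above FCGR2A and ITGAM. The ITGAM share rests on ITGAM-201, which averages 0.38 FPKM, and has no value when transcripts with a mean under 0.5 FPKM are left out.

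**Figure D4:**
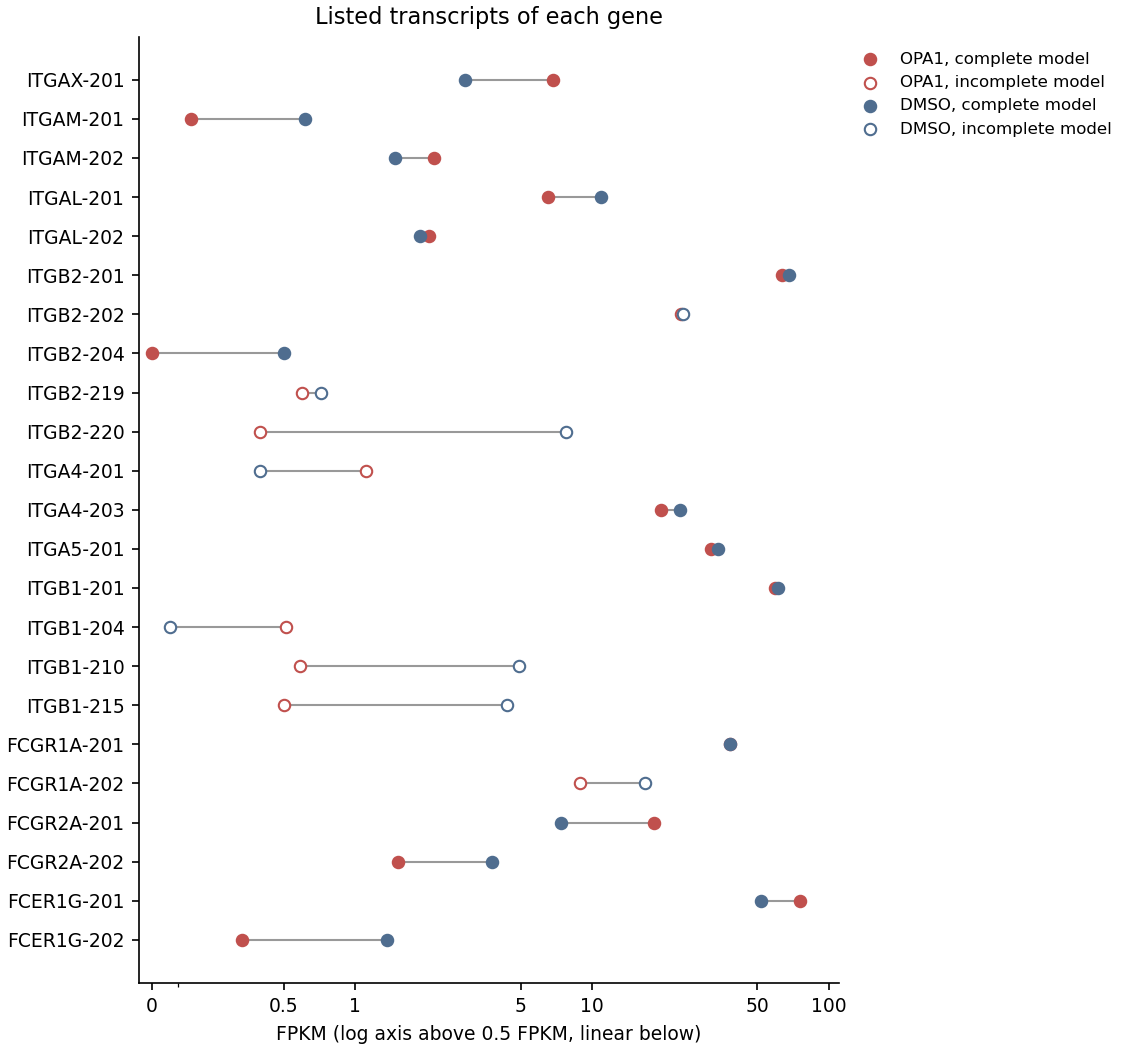
FPKM of each of the 23 listed transcripts in the OPA1 library (red) and the DMSO library (blue), 1 library each, joined by a line; open circles are models that GENCODE marks as incomplete, and the axis is logarithmic above 0.5 FPKM and linear below. The main transcripts of ITGB2, ITGB1, ITGA5 and FCGR1A nearly coincide, while the longest lines belong to low transcripts, among them the incomplete ITGB2-220, ITGB1-210 and ITGB1-215.

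Other genes of these families gave few further values. Of 20 other integrin subunits 5 had rows and 4 averaged at least 1 FPKM, of which 3 were higher, 1 was lower and none was 2-fold apart. ITGB5 was at 2.49 FPKM with OPA1 and 1.37 FPKM with DMSO, and ITGB7, which can also pair with the ITGA4 chain, at 4.20 FPKM with OPA1 and 3.82 FPKM with DMSO. ITGAV was level in sum, at 7.48 FPKM with OPA1 and 7.32 FPKM with DMSO, although its main transcript differed: ITGAV-202 was listed at 0 with OPA1 and at 6.41 FPKM with DMSO. ITGA7 was level at 6.37 FPKM with OPA1 and 6.40 FPKM with DMSO. Of 20 other Fc and immunoglobulin receptors 4 were measured, 3 higher and 1 lower. FCER2, the low-affinity IgE receptor CD23, was at 1.94 FPKM with OPA1 and 1.33 FPKM with DMSO. FCGRT, the neonatal Fc receptor that recycles IgG, was at 17.5 FPKM with OPA1 and 15.4 FPKM with DMSO, and TRIM21, a cytosolic antibody receptor, at 20.6 FPKM with OPA1 and 18.7 FPKM with DMSO.

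The machinery that activates the receptors or signals from them lay near the centre of all genes as a group. Of 30 measured genes of integrin activation and adhesion adaptors, 15 were higher and 15 lower, none by 2-fold on the log2(FPKM + 1) scale, and their median log2 ratio was 0.0012. In plain FPKM 1 of them, CYTH1, was 2.14-fold lower. Furthest apart were CYTH1, a guanine nucleotide exchange factor that binds the ITGB2 tail, at 4.02 FPKM with OPA1 and 8.61 FPKM with DMSO, and KRIT1, a binding partner of the integrin regulator ITGB1BP1, at 6.28 FPKM with OPA1 and 12.3 FPKM with DMSO. RASGRP2, which activates the GTPase RAP1 upstream of integrins, was at 25.7 FPKM with OPA1 and 44.9 FPKM with DMSO. LIMS1, an adaptor of the integrin-linked kinase complex, was at 16.3 FPKM with OPA1 and 11.2 FPKM with DMSO. In CYTH1, KRIT1 and RASGRP2 the lower sum lay largely in 1 transcript. CYTH1-215 was listed at 0 with OPA1 and at 4.25 FPKM with DMSO, KRIT1-201 at 0 with OPA1 and at 9.22 FPKM with DMSO, and RASGRP2-215 at 1.10 FPKM with OPA1 and 15.3 FPKM with DMSO.

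Of 33 measured genes of ITAM signalling, 15 were higher and 18 lower, none by 2-fold on the log2(FPKM + 1) scale, with a median of -0.05. In plain FPKM 1 of them, PIK3R1, was 2.06-fold lower. INPP5D, the lipid phosphatase SHIP1 that restrains Fc receptor signals, was at 33.8 FPKM with OPA1 and 49.4 FPKM with DMSO. The kinase FYN was at 17.6 FPKM with OPA1 and 24.3 FPKM with DMSO, and PIK3R1, a regulatory subunit of phosphoinositide 3-kinase, at 3.57 FPKM with OPA1 and 7.36 FPKM with DMSO. The lower PIK3R1 sum lay in PIK3R1-202, listed at 0 with OPA1 and at 3.78 FPKM with DMSO. PIK3R1-211 was level at 3.57 FPKM with OPA1 and 3.58 FPKM with DMSO. FYN-204 was listed at 0 with OPA1 and at 19.1 FPKM with DMSO. FYN-229 went the other way, at 12.3 FPKM with OPA1 and 0.31 FPKM with DMSO. VAV2, a guanine nucleotide exchange factor, was at 6.19 FPKM with OPA1 and 3.15 FPKM with DMSO. Of 30 actin genes of the phagocytic cup, 16 were higher and 14 lower, none by 2-fold, and their median was 0.05. ARPC2 was at 73.3 FPKM with OPA1 and 112 FPKM with DMSO, ACTR3, like it a subunit of the actin-nucleating ARP2/3 complex, at 82.8 FPKM with OPA1 and 56.6 FPKM with DMSO. CYFIP1, of the WAVE complex, was at 6.16 FPKM with OPA1 and 8.71 FPKM with DMSO, and ELMO1, which activates RAC1, at 10.2 FPKM with OPA1 and 14.1 FPKM with DMSO. Their transcripts differed in both directions. The lower ELMO1 sum lay largely in ELMO1-202, at 0.10 FPKM with OPA1 and 7.68 FPKM with DMSO. ELMO1-201 was higher, at 7.28 FPKM with OPA1 and 2.20 FPKM with DMSO. CYFIP1-208 was also higher, at 3.72 FPKM with OPA1 and 2.30 FPKM with DMSO, while the other listed CYFIP1 transcripts were lower. Of 15 ligands of these integrins 3 were measured, and ICAM3, which binds LFA-1, was at 1.05 FPKM with OPA1 and 2.97 FPKM with DMSO, with F11R at 3.81 FPKM with OPA1 and 3.31 FPKM with DMSO and ICAM2 at 1.78 FPKM with OPA1 and 1.59 FPKM with DMSO.

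The monocytic label of the cells was met by most markers tested. Of 30 monocyte genes 23 had rows, summing to 881 FPKM with OPA1 and 817 FPKM with DMSO, and of the 22 averaging 1 FPKM or more 12 were higher and 10 lower. Their median log2 ratio was 0.07. SPI1, the PU.1 transcription factor of myeloid cells, was at 113 FPKM with OPA1 and 107 FPKM with DMSO, and CSF1R, a defining monocyte receptor, at 8.29 FPKM with OPA1 and 8.47 FPKM with DMSO. CD14 and FCN1 had no row and are not analysed here. Furthest apart of this list were CD68, a lysosomal glycoprotein, at 14.2 FPKM with OPA1 and 20.7 FPKM with DMSO, KLF4 at 2.21 FPKM with OPA1 and 1.61 FPKM with DMSO, IRF8 at 131 FPKM with OPA1 and 107 FPKM with DMSO, and TYROBP at 14.6 FPKM with OPA1 and 18.0 FPKM with DMSO. Of 12 T and NK cell markers 2 had rows, NKG7 at 27.9 FPKM with OPA1 and 26.9 FPKM with DMSO and NCAM1 at 7.15 FPKM with OPA1 and 9.17 FPKM with DMSO. Of 7 B cell markers 3 had rows and summed to 1.40 FPKM with OPA1 and 0.98 FPKM with DMSO, 1 of 10 erythroid and megakaryocyte markers, GP9, was at 0.80 FPKM with OPA1 and 0.67 FPKM with DMSO, and no epithelial or fibroblast marker of 10 had a row.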

How the data were processed

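Trizol was used to extract total RNA of the 2 cultures for Illumina sequencing, per the labels' protocols. The deposited values are FPKM of single transcripts, per the file headers. Named in the submitters' processing notes, with neither version nor role, are StringTie, HISAT, edgeR and the hg19 build. All rows are protein-coding and reach at least 0.5 FPKM in 1 library, which was tested on the table. The table used has 2 empty lines, which are not analysed here. The read depth behind the values is unknown. Length-scaled values of the 300 lowest genes with 1 listed transcript were searched for multiples of 1 read. They gave an alignment of 0.14 in each library, where exact multiples would give 1, so no step of 1 read was found. Reads assigned in fractions or scaled by another length would not align either, so the search does not settle how the values arose. The values are FPKM, and no count model was used. An exact 0 may be a failed estimate.

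Groups came from the treatment label. Transcripts were summed per symbol, log2 ratios took a pseudocount of 1 FPKM, and genes and transcripts with a mean of at least 1 FPKM were compared by size. No test was run, since each group is 1 library. Genes of a like level are those with a mean within 2-fold. All 10 members, every listed transcript of theirs and the 4 genes furthest apart in each list are named, together with other integrins, Fc receptors and markers with rows. SPI1, CSF1R and the transcripts of genes that are not members were picked after their values were seen. Members and lists were chosen with earlier results of these data known. Transcript models and sequences came from GENCODE release 29 by ID (all 23 found, 21 of them in the same version), and hg19 coordinates from the table. Those in another version are ITGAM-201 and ITGAM-202, so their printed sequences and stretch shares may differ from the versions that were quantified. Each transcript was cut into 50-base stretches, compared on the sense strand, since the read length is not given in the sources used here. Alternatives were another pseudocount, another minimum, 3 scalings and the most abundant transcript in place of the sum, and, chosen after seeing the data, complete models only. The ratio computation was tested on simulated data, in which DMSO values were multiplied by known folds without noise. That test used nearly no pseudocount, so it does not cover the pseudocount of 1 FPKM or the 2-fold counts. Versions were Python 3.11.15, pandas 2.3.3, numpy 2.4.6 and, for figures, matplotlib 3.10.9.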

Additional observations from a re-analysis of the deposited data

How the results depend on the processing

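With no replicates, a log2 ratio was taken as changed where it moved by at least 0.1, and a count where it moved by over 1.5 times. Centring on the median gene and scaling on a trimmed mean changed no value by that measure. Rescaling each library to a sum of 1000000 changed 11 log2 ratios, ITGAX to 1.13 and FCGR2A-202 to -1.18 among them. It gave 6 member transcripts 2-fold apart, as did a pseudocount of 0.1 FPKM. The share over all transcripts was not computed at either setting. With rescaling, 569 of 10601 genes were 2-fold apart. Over all alternatives ITGAX had log2 ratios of 1.01 to 1.21, FCER1G of 0.48 to 0.53, ITGAM of 0.10 to 0.35 and FCGR1A of -0.24 to 0.0077, the last turning sign with the most abundant transcript or complete models only. Taking the most abundant transcript gave 2 members at least 2-fold apart in place of 1, since FCGR2A was then at 1.20. Over all genes 1199 of 10270 were then apart, in place of 420 of 10601. The member median was then -0.018. This choice gave medians of 0.64 for the other integrin subunits, -0.40 for the ligands, 0.16 for the actin genes and 0.050 for the T and NK cell markers. A minimum mean of 5 FPKM left 0 members 2-fold apart, because ITGAX averages 4.90 FPKM, and 234 of 7270 genes. A pseudocount of 0.1 FPKM gave 640 of 10601 genes. Without a minimum the ligands had a median of -0.12. With complete models only, the member median was -0.018, the T and NK cell marker median 0.0060 and 2 member transcripts were 2-fold apart in place of 5. Of all complete transcripts averaging at least 1 FPKM, 3122 of 17141, or 18.2%, were 2-fold apart. Differences of low transcripts grew with the smaller pseudocount: ITGB2-220 was then at -3.96 in place of -2.64. No paired analysis was possible because each group is 1 library. No library could be left out for the same reason.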
